A study of Mus musculus with 11 samples.

Results

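The genes described here were 10 immediate early genes: the AP-1 subunits Fos, Fosb, Jun, Junb and Jund, the zinc finger factors Egr1 and Egr2, the AP-1 partner Atf3, the small nuclear protein gene Ier2 and the orphan nuclear receptor Nr4a1. They were taken by symbol, and 10 of 10 were found among the 27998 genes of the droplet tables and among the 23997 genes of the plate tables. All cells came from adult male Pdgfrb-BAC-eGFP mice on a C57BL/6 background, in which a bacterial artificial chromosome with the Pdgfrb promoter drives GFP in mesenchymal cells. GFP+ cells without CD45 or CD102 were sorted from digested liver. Droplet libraries (10X Chromium, which counts unique molecular identifiers, UMIs, at the 3′ end of transcripts) were made from uninjured mice with digestion protocol 1 and with protocol 2, from mice given CCl4 for 6 weeks with each protocol, and from mice 72 h after a single dose of CCl4 with protocol 2. Each of these 5 libraries pooled 3 mice, so that no droplet comparison has a replicate. Smart-seq2 plates, on which 1 sorted cell per well gives reads along the whole transcript, held uninjured mice and mice whose bile duct had been ligated 14 days before (BDL) or that had had CCl4 for 6 weeks. Protocol 1 minced the liver after a flush with PBS and digested it outside the body with pronase, collagenase B and DNase at 37 °C. Protocol 2 digested first by retrograde perfusion in place, then outside the body, and ended with a density gradient.

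Immediate early genes are held ready for transcription and are switched on within minutes of a growth factor, cytokine, mechanical or stress signal, with no new protein needed for it. ERK, JNK and p38 kinases act on factors bound at their promoters, chiefly serum response factor with its ternary complex partners at CArG boxes, and CREB and ATF proteins at cyclic AMP response elements. Fos and Jun proteins pair through leucine zippers to form AP-1, which binds the promoters of matrix, protease and cell cycle genes. The transcripts are short-lived. In liver mesenchyme this response is known from the activation of hepatic stellate cells (HSCs), and it is also known to start while tissue is being dissociated.

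Within short promoter windows, these genes carry the letters of those elements unevenly. Windows from 250 bases before to 50 after a transcript start (RefSeq, GRCm38.p6) were at hand for 8 of the 10 genes, all but Egr1 and Ier2. The core of the cyclic AMP response element, TGACG read on either strand, occurred in a window of 6 of the 8 (Fos, Fosb, Junb, Egr2, Atf3 and Nr4a1) and in a window of 23.0% of all 27025 genes, some of which have several windows. The full element TGACGTCA, which would overlap that core, occurred in none of the 8 and in 2.03% of all genes. The variant TGACATCA occurred in Jun alone of the 8 and in 4.18% of all genes. The CArG box (CC, then a run of A or T, then GG) occurred in Egr2 alone of the 8, against 1.81% of all genes. The AP-1 motif TGANTCA, in 8.97% of all genes, and the Egr motif GCGTGGGCG, in 0.707%, occurred in none of the 8. Both strands were searched for each, and a match is a run of letters, not a measured binding site. Bases outside the windows were not searched, so a gene without a match here can have one further from its start. The Jund window, chr8:70697489-70697788, ends before the Jund gene itself, which starts at 70698949. Its lack of matches may thus not describe the Jund promoter. Of the sequences below, Fos is shown for the gene with most UMIs, Jun for its own variant, Egr2 for its CArG box and Nr4a1 for its repeated core. Capitals mark the CArG box, TGACG or its reverse complement CGTCA, and TGACATCA.
Fos (chr12:85473640-85473939, plus strand): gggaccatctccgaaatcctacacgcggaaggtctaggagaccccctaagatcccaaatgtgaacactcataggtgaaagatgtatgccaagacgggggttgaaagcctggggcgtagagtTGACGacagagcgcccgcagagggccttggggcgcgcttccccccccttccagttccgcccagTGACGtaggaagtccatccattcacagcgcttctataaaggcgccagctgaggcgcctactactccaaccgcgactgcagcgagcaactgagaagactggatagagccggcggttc
Jun (chr4:95052173-95052472, minus strand): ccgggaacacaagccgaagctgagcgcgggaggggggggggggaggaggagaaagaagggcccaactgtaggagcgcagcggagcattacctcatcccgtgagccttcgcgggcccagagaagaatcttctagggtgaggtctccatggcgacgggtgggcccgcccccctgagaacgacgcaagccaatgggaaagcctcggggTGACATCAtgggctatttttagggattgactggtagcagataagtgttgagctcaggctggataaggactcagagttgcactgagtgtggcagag
Egr2 (chr10:67537619-67537918, plus strand): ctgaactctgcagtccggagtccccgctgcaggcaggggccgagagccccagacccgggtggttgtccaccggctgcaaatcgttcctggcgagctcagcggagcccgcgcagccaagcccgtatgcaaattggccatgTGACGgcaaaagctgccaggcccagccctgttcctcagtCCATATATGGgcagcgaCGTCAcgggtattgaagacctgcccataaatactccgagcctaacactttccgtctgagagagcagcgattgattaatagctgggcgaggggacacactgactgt
Nr4a1 (chr15:101266596-101266895, plus strand): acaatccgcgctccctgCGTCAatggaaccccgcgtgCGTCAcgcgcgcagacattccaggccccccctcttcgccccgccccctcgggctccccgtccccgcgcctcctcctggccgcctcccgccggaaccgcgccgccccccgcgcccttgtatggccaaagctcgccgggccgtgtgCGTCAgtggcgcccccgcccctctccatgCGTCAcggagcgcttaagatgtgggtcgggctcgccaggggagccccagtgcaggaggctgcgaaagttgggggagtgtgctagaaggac
In Fos the cores ended 125 and 62 bases before the start, and a TATAAA box, present in 15.7% of all genes, ended 28 bases before it. The Jun variant ended 38 bases before the start. Egr2 alone of the 8 had several windows, with different starts. In the window shown its CArG box ended 63 bases before the start, between a core at 107 and a core at 51 bases. From other starts the same box ended 64 or 124 bases before. Another window held a different CArG box, CCTTTTTTGG, and the window furthest upstream had no match. Nr4a1 had 4 cores, at 229, 209, 65 and 36 bases.

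After filters the droplet libraries held 5454 to 7310 cells with median depths of 4299 to 11343.5 UMIs per cell, deepest at 72 h, and any pair of libraries shared 33 to 74 cell barcodes. Clusters were built without the 10 genes and named from marker lists. Protocol 1 gave fibroblast-like (FB-like) and vascular smooth muscle-like (VSMC-like) cells and protocol 2 gave HSC-like cells, so that cell class and digestion protocol cannot be told apart between them. The summed HSC markers were at 27296 UMIs in 1000000 (CPM) in HSC-like cells of uninjured mice, 5814 at 72 h and 16818 at 6 weeks, against 461 to 746 in the FB-like and VSMC-like cells. Markers of other cell types were low in these classes: hepatocyte markers summed to 9.2 to 53.5 CPM and leucocyte markers to 3.8 to 13.3 CPM. The plates kept 2065 of 2292 wells, with median depths per plate of 416484 to 467742 reads. Their 312 HSC-like wells all came from the mice labelled Uninjured 2 and Uninjured 3 of plate 6. A cluster of 27 mesothelial wells stayed in the sums over all wells. In reads in 1000000, mesothelial markers reached 1192 and leucocyte markers 642 in CCl4 1 of plate 5, and hepatocyte markers 497 in CCl4 2 of plate 5. Uninjured portions of plates 1 to 5 had 23.3 to 342, 11.0 to 79.9 and 0.519 to 66.4 in the same order. In BDL 1 of plate 1 mesothelial markers were at 420. BDL 1 of plate 4 had leucocyte markers at 323 and hepatocyte markers at 259. Cholangiocyte markers reached 287 in BDL 1 of plate 1 and 370 in CCl4 1 of plate 5, against 9.91 to 87.7 in those uninjured portions.

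In uninjured mice the 10 genes made up 14844 CPM in FB-like, 16087 in VSMC-like and 12380 in HSC-like cells, that is over 1 in 100 of the transcripts captured. Fos (chr12:85473890-85477273), the gene of the founding AP-1 subunit, had the highest level of the 10 in each class, at 4483 CPM in FB-like, 6090 in VSMC-like and 3599 in HSC-like cells. UMIs count transcripts by 1 end and so do not grow with transcript length. Fosb (chr7:19302696-19310051), whose long and short proteins also pair with Jun, stood at 355, 530 and 497 CPM in the same order. Both Fos genes were thus highest in VSMC-like cells.

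Among the Jun genes, Jun (chr4:95049034-95052222), the subunit that JNK phosphorylates, was at 2420 CPM in FB-like, 1918 in VSMC-like and 2378 in HSC-like cells. Junb (chr8:84974484-84978718), a weaker activator that can hold Jun back, was at 2220, 3125 and 2647 CPM. Jund (chr8:70698949-70700616), the subunit that resting cells keep expressing, was at 2708, 1514 and 1271 CPM. Each Jun gene was thus lowest in a different class, Jun in VSMC-like, Junb in FB-like and Jund in HSC-like cells, and the order Jund, Jun, Junb of FB-like cells was turned round to Junb, Jun, Jund in both other classes. The 95% counting intervals of these neighbours did not overlap within any of the 3 classes.

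Egr1 (chr18:34859823-34864984), a direct target of ERK signalling, was at 938 CPM in FB-like, 875 in VSMC-like and 641 in HSC-like cells. Egr2 (chr10:67535475-67542188), best known from myelinating Schwann cells, was far lower, at 10.1, 14.6 and 41.9 CPM, and highest in HSC-like cells. Schwann cell markers summed to 0.9 CPM in those HSC-like cells, and Sox10, Cdh19 and Mbp were at 0 there. Atf3 (chr1:191170296-191218039), a stress-induced member of the ATF family, was at 309, 611 and 262 CPM. Ier2 (chr8:84661331-84662852), whose small protein acts in the nucleus, was at 1244, 1001 and 948 CPM. Nr4a1 (chr15:101254269-101274795), a receptor induced by cyclic AMP and calcium, was at 158, 407 and 95.3 CPM, and like Atf3 it was highest in VSMC-like cells. Heat shock genes, a list of 11 used as a measure of isolation stress, summed to 3578 CPM in FB-like, 4449 in VSMC-like and 5908 in HSC-like cells, highest where the sum of the 10 genes was lowest. The list was not uniform. Hspb1, Hspa8, Hsp90aa1, Hsp90ab1 and Hspd1 were higher in VSMC-like than in FB-like cells, Hspb1 at 1189 against 307 CPM. The other genes of the list were lower there, Hspa1a at 240 against 385 CPM. The part of isolation stress in the class differences was not tested.

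**Figure D1:**
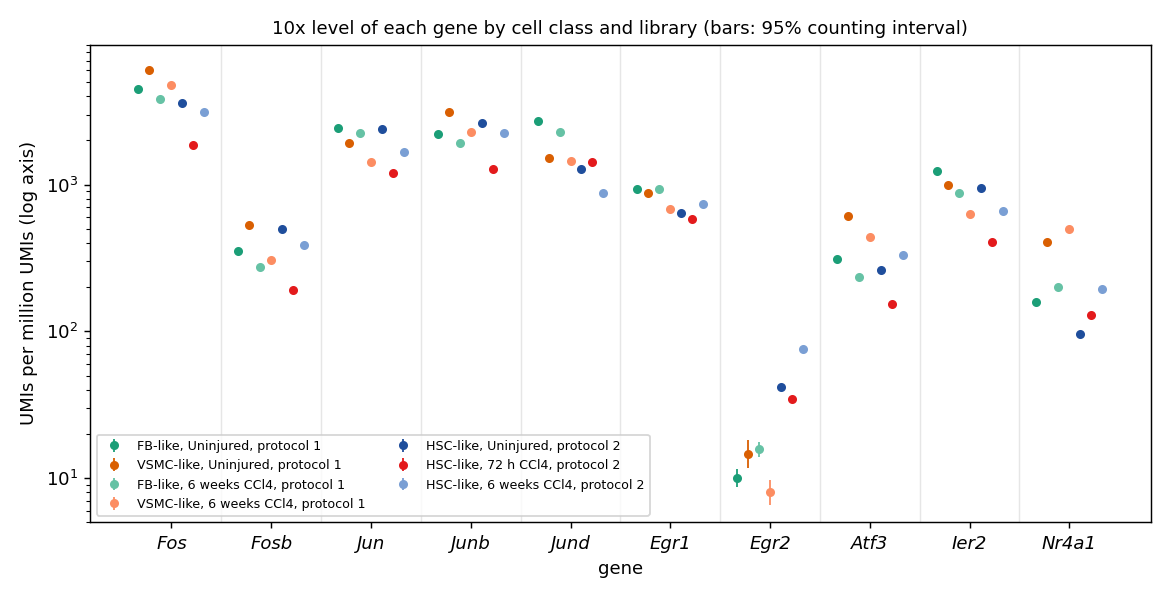
Level of each of the 10 genes (CPM, log axis) in the named cell classes of the 5 droplet libraries, with 95% Poisson intervals that cover counting error only. Fos is the highest in each class, up to 6090 CPM in VSMC-like cells of uninjured mice, and Egr2 the lowest, down to 8.01 CPM in VSMC-like cells at 6 weeks.

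In HSC-like cells of uninjured mice the 10 genes varied widely from cell to cell. With each cell thinned to 2000 UMIs, the summed count of the 10 genes had a median of 17 there, with 3 at the 10th and 57 at the 90th percentile of cells. The median was 29 in FB-like cells, between 13 and 48, and 33 in VSMC-like cells, between 11.2 and 54. At 72 h the HSC-like cells had a median of 14, between 4 and 26, and at 6 weeks 16, between 2 and 44. The typical HSC-like cell thus differed less between conditions than the cells at the 90th percentile. For Fos the variance over the mean of thinned counts was 7.52 in HSC-like cells of uninjured mice, 2.57 at 72 h and 5.07 at 6 weeks, against 3.88 to 4.36 in the protocol 1 classes. Thinning left out 113 of the 6831 HSC-like cells of uninjured mice and none of those at 72 h or 6 weeks, and 87 to 284 cells of each protocol 1 class.

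**Figure D2:**
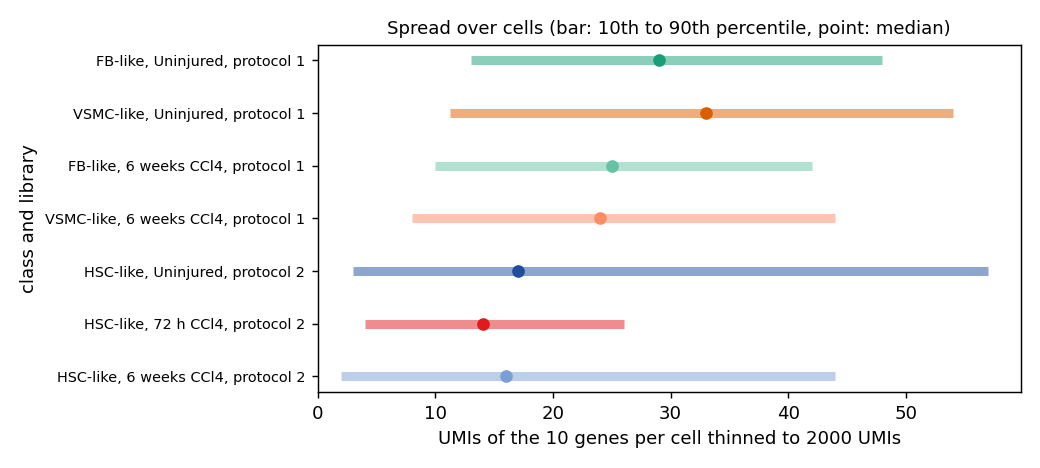
Summed UMIs of the 10 genes per cell after thinning to 2000 UMIs, by class and library, with the median and the 10th and 90th percentiles. HSC-like cells of uninjured mice run from 3 to 57 UMIs with a median of 17, while those at 72 h run from 4 to 26.

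The genes moved together from cell to cell in the protocol 2 libraries, and less evenly in those of protocol 1. The correlation of log-normalised values across cells had a median over the 5 libraries of 0.69 for Fos and Jun, with a range of 0.38 to 0.79, of 0.66 for Fos and Junb and of 0.65 for Fos and Egr1. These cells share a library and its depth, and cell classes were pooled within a library. Jun and Egr2 gave the lowest median, 0.14. In the protocol 1 libraries of uninjured mice and of 6 weeks, Fos and Junb gave 0.51 in each. Jun and Nr4a1 gave 0.07 and -0.003 there. Of 983 other genes with at least 100 CPM in each library, the closest to the mean of the 10 genes were Zfp36, which destabilises AU-rich transcripts, with a median correlation of 0.70, then Btg2 with 0.63, the cytokine feedback gene Socs3 with 0.52, the MAP kinase phosphatase Dusp1 with 0.51 and Klf2 with 0.50. The mean log-normalised level of the heat shock genes followed that of the 10 genes loosely or not at all, with correlations of -0.04 to 0.20 in the 5 libraries. The mitochondrial share gave -0.21 to -0.01 and the log of total UMIs 0.06 to 0.22.

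At 72 h after CCl4, the 10 genes together were lower in HSC-like cells than in uninjured mice, at 7242 against 12380 CPM, a ratio of 0.585 with a counting interval of 0.583 to 0.587. This is a share of UMIs: per cell the 10 genes had a mean of 85.9 UMIs at 72 h and 83.8 in uninjured mice, while all genes had 11858 and 6770. The median mitochondrial share was 2.75% at 72 h and 1.75% in uninjured mice. Fos was at 1850 against 3599 CPM, Fosb at 190 against 497, Jun at 1201 against 2378 and Junb at 1271 against 2647, so that the 4 inducible AP-1 subunits had ratios of 0.514, 0.383, 0.505 and 0.480. Jund stood apart at 1426 against 1271 CPM, a ratio of 1.12. Ier2 was at 405 against 948 CPM, a ratio of 0.427, and Atf3 at 153 against 262, a ratio of 0.586. Egr1 was near its level in uninjured mice, at 581 against 641 CPM, and Egr2 was at 34.4 against 41.9 CPM. Nr4a1 was the highest ratio, 1.35, at 128 against 95.3 CPM. In all, 6 of the 10 genes were at least 1.5-fold lower, and none was that much higher. Of 6234 genes with at least 20 CPM in either library, 26.4% were that much lower and 13.3% that much higher, with a median ratio of 0.861 against 0.550 for the 10.

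These values come from single libraries and have no test. The heat shock genes were also lower at 72 h, 9 of 11 by at least 1.5-fold, with a summed ratio of 0.453, and the cells of the libraries lay in different clusters. HSC-like cells of uninjured mice were mostly in clusters 1 and 4, with 13571 and 9737 CPM of the 10 genes, and those at 72 h in clusters 3, 9, 11 and 12, with 8294, 7158, 5267 and 8037 CPM. Each of these clusters at 72 h was below both. The part of isolation stress in this difference was not tested.

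At 6 weeks the HSC-like cells stood nearer to those of uninjured mice, at 10298 CPM and a ratio of 0.832 with an interval of 0.829 to 0.835. The AP-1 subunits were lower: Fos at 3105 CPM, Fosb at 389, Jun at 1677, Junb at 2257 and Jund at 873, with ratios of 0.863, 0.784, 0.705, 0.853 and 0.687. Ier2 was at 662 CPM, a ratio of 0.698. Egr1, Egr2, Atf3 and Nr4a1 were higher instead, at 734, 75.3, 330 and 195 CPM, with ratios of 1.14, 1.80, 1.26 and 2.05. Egr2 and Nr4a1 alone passed 1.5-fold higher, and none of the 10 passed 1.5-fold lower. Of 5986 genes, 5.51% were that much higher and 9.46% lower, with a median ratio of 0.868. The summed heat shock genes were level, at 6013 against 5908 CPM. Per cell the 10 genes had a mean of 96.4 UMIs, above the 83.8 of uninjured mice, and all genes 9358. The summed ratio, 6 weeks over uninjured, was 0.742 within cluster 1, 0.688 within cluster 4 and 0.845 within cluster 5.

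Between the injuries, 6 weeks over 72 h, the 10 genes had a summed ratio of 1.42, with 7 at least 1.5-fold higher and Jund, at 0.612, that much lower. Among all 5855 genes, 13.7% were that much higher and 12.4% lower. Egr2 had the highest ratio, 2.19, then Atf3 with 2.15 and Fosb with 2.05. The summed heat shock genes had a ratio of 2.25, and 11 of 11 were at least 1.5-fold higher. These comparisons share libraries with those against uninjured mice. By the paper's methods, livers at 6 weeks were taken sooner after their last injection than those at 72 h. The single dose also followed an overnight fast. The number of doses, the time since the last one and the fast cannot be told apart here. The HSC-like cells at 6 weeks lay mostly in cluster 5, with 12254 CPM, and cluster 4, with 6700 CPM. In addition 1185 cells at 6 weeks were in a cluster that the markers left unnamed, where the 10 genes stood at 10314 CPM.

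**Figure D3:**
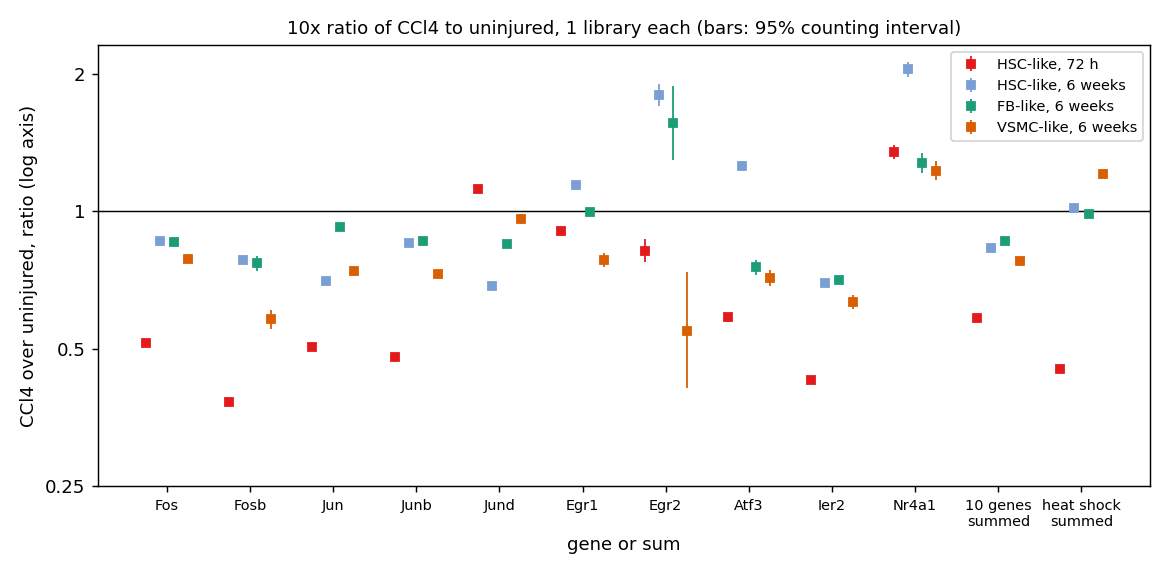
Ratio of CPM in CCl4 over uninjured libraries (log axis) for each of the 10 genes in HSC-like cells at 72 h and 6 weeks and in FB-like and VSMC-like cells at 6 weeks, with counting intervals. At 72 h Fosb, Ier2, Junb, Jun, Fos and Atf3 lie between 0.383 and 0.586, while Nr4a1 lies above 1 in each comparison of these single libraries.

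In FB-like cells 6 weeks of CCl4 went with smaller differences. The 10 genes summed to 12820.5 CPM, against 14844 in uninjured mice, a ratio of 0.864 with an interval of 0.859 to 0.868. Fos was at 3844 CPM, Fosb at 273, Jun at 2232, Junb at 1909 and Jund at 2296, with ratios from 0.770 for Fosb to 0.923 for Jun. Egr1, at 934 CPM, had a ratio of 0.996, whose interval of 0.975 to 1.02 holds 1. Atf3 was at 233 CPM, a ratio of 0.754, and Ier2 at 881 CPM, a ratio of 0.708. Nr4a1, at 201 CPM, had a ratio of 1.28. Egr2, at 15.7 CPM, was the single gene past 1.5-fold higher, with a ratio of 1.56 and an interval of 1.29 to 1.88. It is itself below the 20 CPM that the background asked for. In the background of 6003 genes, 4.75% were that much higher and 1.85% lower, with a median of 0.984. The summed heat shock genes had a ratio of 0.989, within which Hspa1a was at 183 against 385 CPM, Hspa1b at 14.2 against 35.3 and Hsph1 at 20.8 against 31.2, while Hspb1 was at 408 against 307. Per cell the 10 genes had a mean of 82.6 UMIs at 6 weeks and 74.0 in uninjured mice, and all genes 6441 and 4983. Within the 3 clusters of FB-like cells that held both libraries the summed ratio was 0.780 to 0.887.

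VSMC-like cells had a lower sum at 6 weeks, 12512 against 16087 CPM, a ratio of 0.778 with an interval of 0.772 to 0.784. Fosb, at 308 CPM with a ratio of 0.580, Ier2, at 634 CPM with 0.634, and Egr2, at 8.01 CPM with 0.548, were at least 1.5-fold lower, that is 3 of 10 where 2.31% of 5896 genes were that much lower and 6.78% higher. Egr2 was again below 20 CPM in both libraries. Fos was at 4788 CPM, Jun at 1421 and Junb at 2276, with ratios of 0.786, 0.741 and 0.728. Jund was near level, 1457 CPM and a ratio of 0.963. Egr1, at 684 CPM, and Atf3, at 436 CPM, had ratios of 0.782 and 0.714. Nr4a1 was the one gene above its level in uninjured mice, at 500 against 407 CPM, a ratio of 1.23. Its log2 fold change in VSMC-like wells of the plates, given below, was below 0 for CCl4. The summed heat shock genes were higher in these droplet cells, 5385 against 4449 CPM. Hspa8 was at 1453 against 1162 and Hspb1 at 1585 against 1189, while Hspa1a, at 192 against 240, and Hspa1b, at 8.01 against 11.8, were lower. The VSMC-like cells of the libraries lay mostly in different clusters, with 1017 of the 1669 VSMC-like cells of uninjured mice in cluster 7 and 1824 of the 3003 at 6 weeks in cluster 6. The summed ratio of the 10 genes was 0.685 within cluster 6, 0.851 within cluster 7 and 0.749 within cluster 15. Per cell the 10 genes had a mean of 58.8 UMIs at 6 weeks and 55.4 in uninjured mice, and all genes 4698 and 3445. Over all cells of a library, named or not, 6 of the 10 genes were at least 1.5-fold lower at 72 h and none higher, against 26.4% and 13.4% of genes. At 6 weeks none was that much lower and 2 higher with protocol 2 (11.4% and 6.36% of genes), and 1 lower and 1 higher with protocol 1 (3.49% and 8.33%).

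Other genes of the pathway were read from lists, for the genes with at least 20 CPM in either library. At 72 h, where 26.4% of all genes were lower, of 16 feedback genes of ERK and stress signalling 8 were at least 1.5-fold lower in HSC-like cells and none higher, among them Dusp1, at 496 against 1528 CPM, the NF-kappaB inhibitor Nfkbia, at 381 against 984, and the ERK phosphatase Dusp6, at 104 against 267. Of 9 other immediate early transcription factors 7 were lower and none higher, with Klf4 at 67.9 against 203 CPM and Ier5 at 80.1 against 193. Of 10 upstream kinases and factors 6 were lower, serum response factor (Srf) most, at 13.1 against 35.5 CPM, and none was higher. Of 7 AP-1 partners 2 were lower, Mafk at 10.4 against 42.1 CPM among them, and none was higher, a share near that of all genes. Among 4 AP-1 target genes 2 were higher and 2 lower: the metalloproteinase inhibitor Timp1 stood at 179.8 against 7.24 CPM and the chemokine Ccl2 at 318 against 1335. The targets thus went both ways while 4 of the 5 AP-1 subunits were lower and Jund was not.

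At 6 weeks some genes of these lists passed 1.5-fold. In HSC-like cells 2 of 16 feedback genes were higher and 2 lower, against 5.51% and 9.46% of all genes, with Nfkbia at 530 against 984 CPM and Trib1 at 62.0 against 35.1. Myc was at 114 against 62.1 CPM and Nfil3, a leucine zipper repressor, at 31.7 against 7.65. In FB-like cells 2 of 14 feedback genes were higher and none lower, against 4.75% and 1.85% of all genes, with Dusp1 at 1783 against 1138 CPM. Of 5 AP-1 targets there 2 were higher and 1 lower, with the metalloproteinase Mmp3 at 988 against 495 CPM and Ccl2 at 25.6 against 82.0. Among other immediate early factors in FB-like cells Myc was at 79.1 against 35.1 CPM and Csrnp1 at 23.8 against 14.5. In VSMC-like cells 1 of 15 feedback genes was higher and 2 lower, against 6.78% and 2.31% of all genes. Btg2 there was at 869 against 1515 CPM and Ccnd1, the cyclin of early cell cycle entry, at 190 against 41.4. The AP-1 subunit gene Fosl2 was at least 1.5-fold higher in all 3 classes, at 53.5 against 29.9 CPM in HSC-like, 49.6 against 24.8 in FB-like and 82.7 against 47.8 in VSMC-like cells. Among AP-1 partners, Atf2 and Mafk were also that much higher in both protocol 1 classes, and no partner was that much lower there. Atf2 was at 51.7 against 23.4 CPM in FB-like and 59.6 against 31.1 in VSMC-like cells. Mafk was at 30.7 against 20.4 and 71.7 against 35.3 CPM in the same order. No upstream gene passed 1.5-fold at 6 weeks in these classes.

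Within a library, the 10 genes were higher in the HSC-like cells with the most central scores. Liver lobules run from portal tracts to a central vein, and HSC-like cells were ordered by a score of 52 portal and 29 central genes that the study had listed from these same cells, none of them 1 of the 10, and of 3 groups of equal size the most central and the most portal were compared. In uninjured mice the 10 genes stood at 14064 CPM in the central group and 10497 in the portal group, a ratio of 1.34. At 72 h the ratio was 1.37 and at 6 weeks 1.76, with 12778 against 7261 CPM. Each of the 10 genes had a ratio above 1 in each of the 3 libraries. The share of all genes with such ratios was not worked out. Since the 10 genes moved together from cell to cell, they are not separate observations, and the count is a description. Fos was at 4142 against 2993 CPM in uninjured mice, at 2202 against 1463 at 72 h and at 3979 against 2099 at 6 weeks. Jund differed least in uninjured mice, by 1.11, and Egr2 most at each time, by 2.00, 1.99 and 2.69. Nr4a1 followed with 1.87, 1.96 and 2.38.

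The heat shock genes had central over portal ratios of 0.935, 1.11 and 0.894, so in the droplets they did not share the direction in uninjured mice or at 6 weeks. Median depths of these groups were 6795 UMIs portal and 6451 central in uninjured mice, 10249 and 11804 at 72 h, and 9649.5 and 9584.5 at 6 weeks. The score holds 4 genes that can themselves respond as immediate early genes, Gem, Phlda1, Trib1 and Ccl2. Without them, a step chosen after seeing the data, the ratios of the sum were 1.36, 1.39 and 1.79. The other genes of the score stayed in, so this step cannot show whether they move with the 10 genes. On plate 6 the HSC-like wells gave 1.24 for the mouse labelled Uninjured 2, with 51 wells in a group, and 1.89 for Uninjured 3, with 53. In the same wells the heat shock genes gave 1.09 and 1.15, so there they were higher in the central wells of both mice. Egr2 was the exception among the 10, lower in the central wells of Uninjured 2, at 56.2 against 106 reads in 1000000, and higher in those of Uninjured 3, at 230.2 against 41.5.

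**Figure D4:**
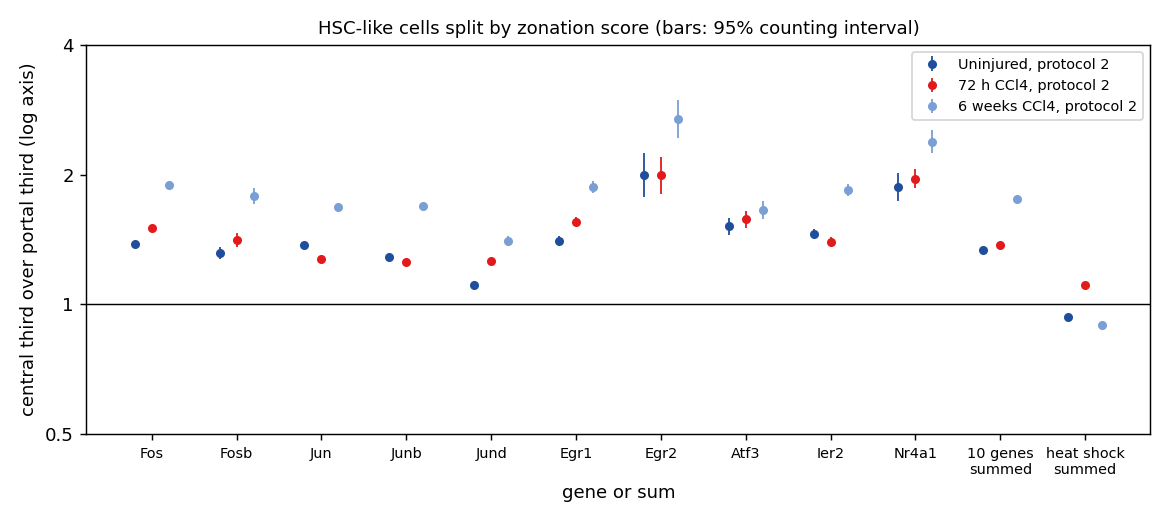
Central over portal ratio of CPM (log axis) for each of the 10 genes and for the summed heat shock genes in HSC-like cells of the 3 protocol 2 libraries, with counting intervals. All 10 genes lie above 1 in each library, from 1.11 for Jund in uninjured mice to 2.69 for Egr2 at 6 weeks, while the heat shock genes lie between 0.894 and 1.11. The share of all genes above 1 was not worked out.

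The plates gave the replicated comparison. Wells of 1 mouse name on 1 plate were summed into a portion, which gave 5 BDL, 4 CCl4 and 5 uninjured portions on plates 1 to 5, all of protocol 1 and without HSC-like wells. The names repeat over plates, so that portions may not be separate mice, and p-values then measure the spread between portions and are too small. The level of Egr1 was 2769, 1256, 2129, 1201 and 1292.5 reads in 1000000 (RPM) in the BDL portions. It was 2804, 4184, 4797, 4187 and 4173 RPM in the uninjured portions of plates 1 to 5, and 2838, 3935, 3620 and 3216 RPM in the CCl4 portions. Every BDL portion was below every uninjured portion, the nearest pair coming from plate 1, while CCl4 portions lay between the uninjured portion of plate 1, which held no CCl4 wells, and those of the other plates.

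Ier2 had the same separation. Its BDL portions were at 423, 264, 367, 347 and 308 RPM and its uninjured portions at 479, 640, 912, 776 and 668 RPM. The CCl4 portions were at 763, 949, 805 and 681 RPM, within the range of the uninjured portions except for 1 above it. Nr4a1 was at 1925, 680, 1364, 1271 and 1040 RPM in BDL portions and at 1961.5, 2357, 2604, 1794 and 2009 RPM in uninjured portions, so that 1 BDL portion, of plate 1, lay above the lowest uninjured portion, of plate 4. CCl4 portions had Nr4a1 at 984, 2143, 1141.5 and 1991 RPM, on both sides of the lowest uninjured portion.

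The AP-1 genes overlapped between conditions. Fos was at 9348, 4382, 5777, 7166 and 5827 RPM in the BDL portions and at 5279, 9713, 10015, 11386 and 9630 RPM in the uninjured portions, where plate 1 is low. In the CCl4 portions Fos was at 6752, 9051, 9655 and 7015 RPM. Means ± SD for BDL (n = 5), uninjured (n = 5) and CCl4 (n = 4) were 550 ± 222, 872 ± 262 and 731 ± 151 RPM for Fosb. For Jun they were 1060 ± 516, 1604 ± 333 and 1510 ± 231 RPM, and for Junb 1112 ± 378, 1700 ± 293 and 1664 ± 268 RPM. Jund was at 114 ± 50.1, 141 ± 26.4 and 119 ± 21.7 RPM, Egr2 at 42.8 ± 26.0, 52.5 ± 25.3 and 50.5 ± 6.41 RPM, and Atf3 at 1304 ± 318, 1691 ± 490 and 1379 ± 645 RPM. Reads grow with transcript length, so these RPM compare samples and not genes.

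**Figure D5:**
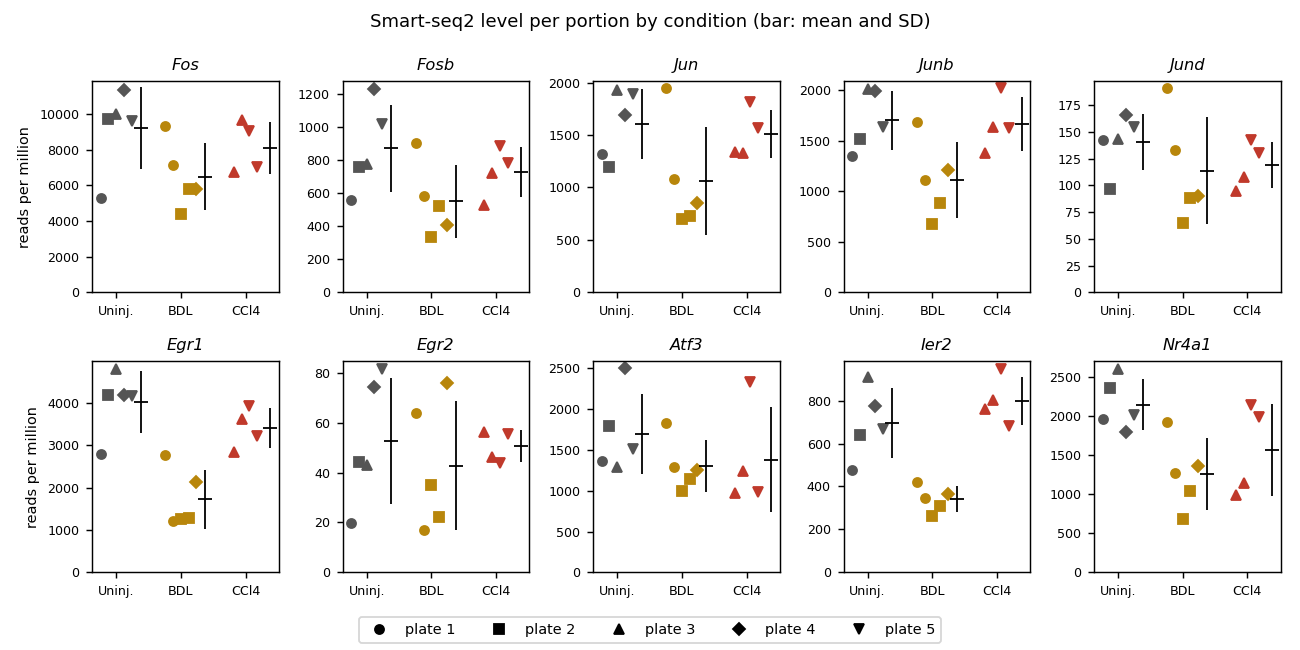
Reads in 1000000 (RPM) of each of the 10 genes in the portions of plates 1 to 5 (all kept wells), by condition, with the mean and SD of 5 BDL, 5 uninjured and 4 CCl4 portions. For Egr1 and Ier2 the highest BDL portions, 2769 and 423 RPM, lie below the lowest uninjured portions, 2804 and 479 RPM.

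None of the 10 genes passed the test in either injury. With edgeR's quasi-likelihood test, plate as a covariate and Benjamini-Hochberg adjustment over 15083 genes, Egr1 had a log2 fold change of -1.06 in BDL (SE 0.30), with an unadjusted p of 0.00444 and an adjusted p of 0.373. In the same edgeR fit Ier2 had -0.80 (SE 0.21), with an unadjusted p of 0.00318 and an adjusted p of 0.355. Nr4a1 had -0.73 (SE 0.31), and its adjusted p from edgeR was 0.515. Of the 10 log2 fold changes in BDL 9 were below 0, with a median of -0.48 where the median of all genes was 0.07, and Egr2 alone was above, at 0.15. For CCl4 9 of 10 were below 0, with a median of -0.24 against 0.02 for all genes, and the adjusted p from edgeR was 1 for each. In all wells edgeR called 0 genes of any kind for BDL (0%), with 1374 at an unadjusted p under 0.05, and 0 for CCl4 (0%), with 734. DESeq2 called 733 and 449 genes. By DESeq2 Egr1 and Ier2 passed in BDL, with adjusted p-values of 0.0196 and 0.00994, where it called 3.93% of genes. For CCl4 it called 2.36% of genes and none of the 10.

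Portions that did not overlap between groups were counted as a description. In BDL 2 of 10 genes, Egr1 and Ier2, were below all uninjured portions, where 2.06% of 7607 genes were. In CCl4 no gene of the 10 was separate in either direction, against 1.49% of genes lower and 1.93% higher. None of the 10 was separate and higher in BDL, against 1.39%. Within plates, Egr1, Ier2 and Nr4a1 were below the uninjured portion of their own plate in 5 of 5 BDL portions, with median ratios of 0.428, 0.482 and 0.648. Fos was below it in 3 of 5, with ratios from 0.451 to 1.77, and in 4 of 4 CCl4 portions, with a median of 0.834. Egr1, Fosb, Jun and Jund were also below it in 4 of 4 CCl4 portions, Egr1 with ratios of 0.592 to 0.943. The highest BDL ratios of Egr1, Ier2 and Nr4a1 were 0.987, 0.884 and 0.982, each from the BDL 1 portion of plate 1. Injured portions of 1 plate share its uninjured portion, so these ratios are not separate comparisons. The share of all genes with such counts was not worked out, and the counts are a description.

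Split by cell class, the low values of Egr1 and Ier2 in BDL were present in both. In FB-like wells Egr1 had a log2 fold change of -1.10 (SE 0.35) and Ier2 of -1.06 (SE 0.29), with adjusted p-values from edgeR of 0.355 and 0.282. Ier2 was at 420, 301, 315 and 315 RPM in the 4 BDL portions with enough FB-like wells, and its lowest uninjured portion was at 452 RPM. Egr1 overlapped there because the BDL 1 portion of plate 1 was at 3301 RPM and the uninjured portion of that plate at 3236 RPM. In VSMC-like wells Egr1 was at 1770, 1030, 2063, 1173 and 1281 RPM in BDL against 2475 to 5025 RPM in uninjured portions. Its log2 fold change there was -1.04 (SE 0.25), with an adjusted p from edgeR of 0.443. Nr4a1 in VSMC-like wells was at 913 to 1932.5 RPM in BDL and 2516 to 3777 RPM in uninjured portions, a log2 fold change of -0.91 (SE 0.27) with an adjusted p from edgeR of 0.492.

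In those classes 1 of 10 genes (Ier2) was separate and lower in FB-like wells, against 2.71% of genes, and 3 of 10 (Egr1, Ier2 and Nr4a1) in VSMC-like wells, against 2.33%. For Nr4a1 the FB-like wells gave a log2 fold change of -0.22 (SE 0.47), and the difference between the classes was not tested. None was separate and higher in BDL (2.44% and 1.57% of genes), and none was separate in CCl4, where 2.4% and 0.813% of genes were lower and 4% and 0.565% higher. In class fits edgeR called no gene of the 10, where it called 0.0433% and 0.00767% of all genes for BDL and 0.065% and 0% for CCl4. DESeq2 called Egr1 and Ier2 for BDL in FB-like wells, with adjusted p-values of 0.0326 and 0.0136, and Egr1 in VSMC-like wells, with 0.00885, where it called 6.04% and 3.53% of genes. It called none of the 10 for CCl4, where 3.05% and 1.74% of genes passed. The change in BDL minus that in CCl4 was furthest from 0 for Ier2 in FB-like wells, -1.41 on the log2 scale (SE 0.44), with an unadjusted p of 0.00899 and an adjusted p from edgeR of 0.882. For CCl4 in VSMC-like wells Nr4a1 had -0.68 (SE 0.32), with an unadjusted p from edgeR of 0.0592. It was below the uninjured portion of its own plate in 3 of 4 portions, with a median ratio of 0.596. The droplet ratio of VSMC-like cells at 6 weeks was above 1 instead, and this difference was not tested. In FB-like wells Nr4a1 had -0.03 (SE 0.51) for CCl4.

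The heat shock genes were lower in BDL as well. Their sum was 2542 ± 308 RPM in BDL (n = 5), 3882 ± 783 in uninjured portions (n = 5) and 3227 ± 413 in CCl4 (n = 4). In the edgeR fit 10 of 11 were below 0 in BDL with a median of -0.97, and 10 had an unadjusted p under 0.05, although none passed adjustment. The cochaperone gene Dnajb1 had the lowest log2 fold change, -1.66 with an adjusted p from edgeR of 0.17. In CCl4 their median was 0.08. The share of reads from spike-in RNA also differed, with means of median shares per portion of 0.189% in BDL, 0.285% in uninjured portions and 0.188% in CCl4. Library sizes taken from the spike-ins changed 13 signs of the 10 genes over all wells, as given below. The part of isolation stress or of RNA amount in the levels of the 10 genes was not tested, and fewer cells with a transcript and less of it per cell cannot be told apart in sums over wells.

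In BDL over all wells edgeR called 0 of 15083 genes, so no list could have a gene called there. Of 14 other immediate early factors 12 were below 0, with a median of -0.37, and of 18 feedback genes 14 were, with a median of -0.37 as well. The 12 upstream genes were split, 7 above and 5 below 0. Of 8 AP-1 targets tested 7 were above 0, with a median of 0.19. In CCl4 the feedback genes were split 9 and 9 and the other immediate early factors 7 and 7.

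Plate 6 held uninjured mice alone, 1 digested with protocol 1 and 2 with protocol 2, and the labels do not say which mouse had which. Fos was at 10259, 7526 and 5983 RPM in the mice labelled Uninjured 1, 2 and 3, and Nr4a1 at 1725, 300.5 and 426 RPM. Egr2 ran the other way, at 17.9, 104 and 208 RPM. Jun was at 1936, 2891 and 1981 RPM, Egr1 at 4091, 3452 and 2338 RPM and Ier2 at 430, 1027 and 723 RPM. The last pair of mice held the HSC-like wells, so that lower Nr4a1 and higher Egr2 went with the HSC-like class on the plates and in the droplets. These 2 mice match the protocol 2 mice in number, and in the droplets class also went with protocol. Cell class and digestion protocol thus cannot be told apart on either platform. The sum of the 10 genes was 22322, 19124 and 14481 RPM, and that of the heat shock genes 3611, 2926 and 3446 RPM.

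Over the 17 portions of the 6 plates, the genes whose log2 RPM was most like the mean of the 10 were Nfkbiz and Nfkbia, both of the NF-kappaB inhibitor family and with a correlation of 0.87, and the peroxisomal gene Pex6 and R3hdm4 with 0.85, of 7576 genes. Over the 14 portions of plates 1 to 5, without HSC-like wells, Pex6 came first with 0.935, then Zfp36 with 0.901 and Dusp1 with 0.895. Nfkbia ranked 5 and Nfkbiz 7 there, of 7597 genes. The portions share plates and mouse names, and these values are a description. From well to well on plates 1 to 5, Fos and Junb had a correlation of 0.71 and Fos and Fosb of 0.67 over 1700 wells. In the 312 HSC-like wells Fos and Egr1 reached 0.87 and Fos and Junb 0.87. The mean of the 10 genes and that of the heat shock genes had a correlation of 0.25 in the former and 0.39 in the latter wells.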

How the data were processed

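Single-cell RNA of GFP+ liver mesenchymal cells was analysed. For 10X, the authors ran Cell Ranger 2.1.0 on mm10 and deposited UMI counts, not normalised, for each cell that it called. For Smart-seq2, the authors aligned to mm10 with STAR, counted with rpkmforgenes and deposited read counts per well, not normalised. Droplet cells with fewer than 300 genes or over 30% mitochondrial counts were left out. Plate wells were left out for total reads or gene numbers far below the median well, or a spike-in share far above it. These distances were measured in median absolute deviations. The 12 control wells were also left out. Doublets were not called.

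Cells were clustered with scanpy 1.11.5 and leidenalg 0.10.2 at resolution 0.8 on 2000 variable genes and 10 components, without the 10 genes and the pathway lists. Cluster names came from marker lists, with the scoring set after clusters were seen. CPM has exact Poisson intervals and ratios exact conditional intervals at 95%, for counting error only. Ratios were counted at 1.5-fold and 20 CPM.

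Plate counts were summed per portion with at least 10 wells and tested in edgeR 4.0.16 (filterByExpr, TMM, plate as covariate, adjusted p under 0.05), with DESeq2 1.42.0 as an alternative. Plate was in the design since each of plates 1 to 5 held uninjured and injured portions. In the edgeR self-test on simulated counts for BDL over all wells (15861 genes), 98% of 4-fold and 12% of 2-fold decreases were called. The simulated counts had the same spread for all genes, no plate effect and independent portions, so these shares may not hold for the real portions. The 10 genes, lists and tests were chosen with earlier results of these data known. All 10 genes are named, and of each list up to 3 genes each way past the threshold, beside the 5 genes most like the 10, except for items that are not reported here.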

Additional observations from a re-analysis of the deposited data

Results flagged for a closer look

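Of 90 groups of portions checked, 6 held a portion far from the others, and chance alone gives about 1 in 20. Fos was at 5279 RPM in the uninjured portion of plate 1, against 9630 to 11386 RPM in the other uninjured portions, and at 5485 against 10494 to 12306 RPM in VSMC-like wells. In FB-like wells the BDL 1 portion of plate 1 was high for Fosb, at 1127 against 385 to 462 RPM, for Jun, at 2468 against 812 to 1071 RPM, and for Ier2, at 420 against 301 to 315 RPM. Jun in VSMC-like wells was at 1665 RPM in the CCl4 1 portion of plate 5, against 1002 to 1071 RPM in the other CCl4 portions. On plate 1 Fos was higher in both BDL portions than in the uninjured portion, with ratios of 1.77 and 1.36 over all wells. In FB-like wells BDL 1 of plate 1 over its uninjured portion gave 1.84 for Fosb, 1.41 for Jun and 0.929 for Ier2.

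In the droplet libraries 5 pairs of ratios lay on opposite sides of 1, a difference that was not tested. In HSC-like cells, CCl4 over uninjured at 72 h and at 6 weeks was 1.12 and 0.687 for Jund, 0.906 and 1.14 for Egr1, 0.821 and 1.80 for Egr2, and 0.586 and 1.26 for Atf3. At 6 weeks the ratio of Egr2 was 1.56 for FB-like cells, against 0.548 for VSMC-like cells.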

How the results depend on the processing

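Droplet libraries pool 3 mice each, and plate portions may share mice. Of 116 alternatives to the 6 plate results, 6 called a gene of the 10. In BDL over all wells DESeq2 called 2 and the edgeR fit with no replicate block (plate left out) 2, Egr1 and Ier2 each time. In BDL FB-like wells DESeq2 called 2, Egr1 and Ier2. In BDL VSMC-like wells DESeq2 called 1 and the fit with no replicate block 1, both Egr1, and the fit with no filter on low counts called 2, Egr1 and Nr4a1. Portions of 1 plate and different conditions deviated together only weakly over all genes (correlations of -0.03 to 0.16 over 9 pairs, median 0.04). Pairs from different plates and conditions ran from -0.44 to 0.52 (56 pairs, median -0.01). The signs of the 10 genes changed in 50 of 1160 values. Of these, 13 came with library sizes from spike-ins, a setting run for all wells alone. It moved the median of all genes to 0.65 in BDL and 0.44 in CCl4. Signs changed with it for Fos, Jun, Junb, Jund and Atf3 in BDL. In CCl4 they changed for all but Ier2 and Nr4a1, Fos going from -0.23 to 0.17. In BDL over all wells Egr1 and Ier2 stayed below 0 in each setting, at most -0.51 and -0.24. Leaving out each portion in turn gave 0 calls among the 10. Over all genes, edgeR called 0 in BDL as designed, 43 without plate, 32 without the filter and 733 by DESeq2, and 0, 26, 16 and 449 in CCl4. In FB-like wells these were 6, 44, 211 and 890 for BDL and 9, 87, 144 and 519 for CCl4, and 0 for both without the wells of the Saa3 and Lcn2 cluster. In VSMC-like wells they were 1, 32, 153 and 581 for BDL and 0, 0, 19 and 298 for CCl4.

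The summed droplet ratio at 72 h was 0.585, and 0.622 as a mean over cells, 0.615 thinned, 0.612 without the cells of most UMIs, 0.528 without Jund and Jun, 0.614 without Fos and 0.583 without cells holding hepatocyte markers. In HSC-like cells at 6 weeks these were 0.832, and 0.851, 0.838, 0.845, 0.887 and 0.819 without Fos. In FB-like cells 0.864 became 0.840 over all cells, 0.857 as a mean, 0.852 thinned, 0.870 without the cells of most UMIs and 0.853 without Jund and Jun. In VSMC-like cells 0.778 became 0.840 over all cells, 0.761 thinned and 0.761 without Jund and Jun. All stayed below 1, and all are shares of UMIs. As means per cell, the UMIs of the 10 genes were higher after CCl4 in each of these comparisons. So were the UMIs of all genes. Leaving out Fos, cells holding hepatocyte markers, genes of the zonation score or the Saa3 and Lcn2 cluster was chosen after seeing the data, and the cause of the shifts was not tested.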

Other observations

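The level of Jund relative to Jun differed between the platforms. In FB-like cells of uninjured mice it stood at 2708 CPM in droplets, above Jun at 2420, while on plates 1 to 5 it was at 150 ± 35.6 RPM (n = 5) and Jun at 2010 ± 280 RPM. The plate values count reads along the transcript, are not per length and use another annotation, and the levels of Jund on plates and in droplets were not brought together here.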
